A study of Mus musculus with 43 samples.

Results

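CD4 T cells that met constitutive high antigen for 10 days were compared with cells whose antigen had been withdrawn after day 3. All were mouse AND T cells, which carry a transgenic T cell receptor for a moth cytochrome c (MCC) peptide, the CD45.1 marker and a Rag2o/o deletion, so that donor cells make no other receptor. The high group (4 arrays, numbered replicates 2 to 5) came from cMCC recipients, in which an invariant chain/MCC construct is expressed constitutively in MHC class II positive cells. These mice drank no doxycycline at any time. The none group (5 arrays) came from iMCC recipients, another strain, in which doxycycline induces the construct in dendritic cells. They drank 100 µg/ml until day 3 and none from then to day 10. Another group (int, 4 arrays), from iMCC recipients kept on 100 µg/ml to day 10, serves here as the iMCC group under persisting antigen. Naive cells (5 arrays) were AND cells recovered on day 3 from recipients that carried no MCC transgene. The labels describe an anti-CD40 antibody given to recipients a day before transfer and do not say separately whether cMCC mice had it. Recipient strain, the cells that present the peptide, doxycycline and the amount of antigen all differ between high and none and cannot be told apart. The labels also state that AND cells in cMCC mice undergo apoptosis by day 30. Donor cells were recovered on day 10 by repeated sorting for CD4, CD90.2 and CD45.1. In all, 9 of the 43 arrays of the series make the comparison, every array the labels assign to these groups.

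A CD4 T cell that keeps seeing its peptide receives repeated receptor signals, which drive NFAT and the EGR and NR4A families of transcription factors. Under lasting stimulation such cells take on inhibitory receptors and lose markers of resting and memory cells, states described as exhaustion or anergy, and some acquire features of follicular helper or IL-10-producing cells. When antigen disappears early, primed cells instead contract to memory cells that depend on IL-7.

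Values are log2 signals of 1 probe set per gene, with 22180 genes tested. A gene was called where limma's Benjamini-Hochberg adjusted p over all of these genes was under 0.05, and "rose" or "fell" is written only of called genes. Differences are log2, high minus none, ± SE, and levels are log2 means ± SD. Each SE and p-value rests on a variance per gene pooled within groups over all 43 arrays in 9 groups, not only on the arrays compared. They can therefore differ from what the spread of the printed values would give. Whether each array stands for its own mouse is not given in the labels. A p-value thus reflects only how much arrays varied within groups, and part of that variation may be technical. With 4 and 5 arrays, precision is limited by their number. No detection calls were used, so where a group lies near or below the array medians of 3.28 to 3.44, called the floor here, the fold and the rank of a difference depend on that floor. High replicate 2 and none replicate 4 lay farthest from their groups, with median correlations to the other arrays of 0.957 and 0.969, against 0.968 to 0.974 and 0.980 to 0.983 for the rest. Unless a sentence says otherwise, the calls of named genes held on leaving out each of the 9 arrays in turn, and the groups did not overlap.

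Across the whole table limma called 1165 genes, 5.25% of those tested. Of these 615 rose (2.77%) and 550 fell (2.48%), and 504 changed by at least 2-fold, 270 upward and 234 downward. The median difference over all genes was 0.01. Shares called in the gene lists below are to be read beside this 5.25% of all genes. High and none arrays did not overlap for 1441 genes (6.5%), and for 783 of the 1165 called. On leaving out each of the 9 arrays in turn 584 of the calls held each time, 404 of them among the 504. Leaving out high replicate 2 and none replicate 4 together was tried after the data had been seen. It gave 1040 called genes, and 855 of them belonged to the 1165.

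**Figure D1:**
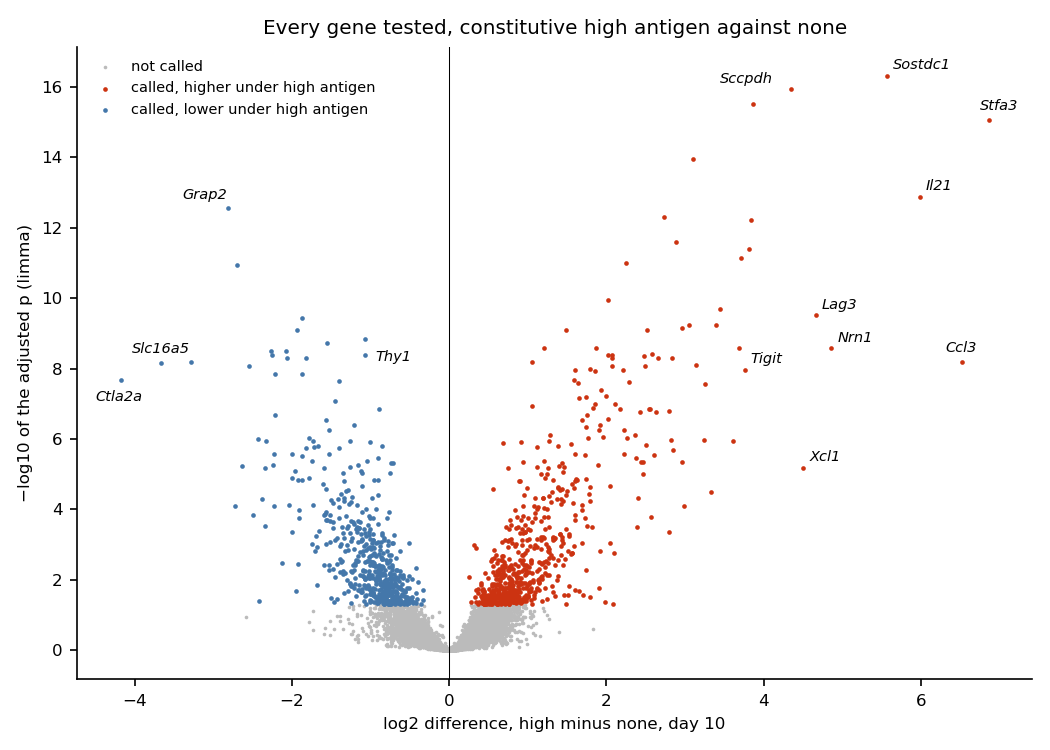
Each point is 1 of 22180 genes, placed by its log2 difference between high and none cells on day 10 (x axis) and by the negative log10 of limma's adjusted p (y axis), with 615 called higher in red, 550 called lower in blue and the rest in grey. Rises reach 6.86 (Stfa3), while the largest fall among named genes is -4.18 (Ctla2a).

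The sort markers came first among single genes. Cd4 lay at 10.01 ± 0.61 (n = 4) under high antigen and 9.46 ± 0.22 (n = 5) in none cells, and Ptprc (CD45) at 10.96 ± 0.23 and 11.06 ± 0.19. Neither passed the test (adjusted p = 0.0517 and 0.667). Cd4 was called higher without high replicate 2 (0.85, adjusted p = 0.000104), without none replicate 2 or 5 (adjusted p = 0.0489 and 0.0372), with array weights (0.0122), with dim genes left out (0.0235) and with probe sets averaged (0.0497). Thy1, which encodes the sort marker CD90, fell. It was at 9.69, 10.45, 10.19 and 10.17 under high antigen and between 11.07 and 11.29 in none cells, a difference of -1.07 ± 0.12 (adjusted p = 4.19e-09). Rag2 was near the floor of the scale everywhere, at 2.82 to 3.46 and 2.41 to 2.79, without overlap, and was not called. With median centring, array weights or probe sets averaged it was called higher (adjusted p = 0.0423, 0.0459 and 0.0496). The same held without high replicate 4, high replicate 5 or none replicate 4 (adjusted p = 0.0369, 0.0327 and 0.0342). Of 13 B cell markers measured 0 were called, and the mean level of the list ran from 3.17 to 3.31 in high arrays and 3.17 to 3.30 in none arrays. Among 24 myeloid and dendritic cell markers 1 was called (Cst3, at 8.58 ± 0.25 against 7.72 ± 0.46, overlapping, a call lost without 7 of the 9 arrays, to adjusted p = 0.11 at most). Their mean level ran from 3.57 to 3.73 and from 3.56 to 4.03. Cd79a, Itgax, H2-Ab1 and Cd8a had group means between 2.66 and 3.43 in both groups. The neutrophil genes S100a8 and S100a9 stood at 7.57 to 8.27 and 7.35 to 7.97 in none replicates 3, 4 and 5, above the other 6 arrays, and did not pass the test (adjusted p = 0.565 and 0.24). Their part in the falls described here was not tested. Of 4 erythroid markers 0 were called, and of 4 markers of NK, CD8 and gamma-delta T cells 1 was (Klrb1c). The mean level of the latter list ran from 3.66 to 4.23 in high arrays and from 3.41 to 3.83 in none arrays. In such bulk samples, fewer cells that express a gene and less RNA per cell cannot be told apart.

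Several of the largest rises were in genes that lay near the floor of the scale without antigen. Stfa3, a stefin that inhibits cathepsin-type cysteine proteases inside cells, lay at 10.52, 9.68, 9.89 and 7.46 in high arrays and at 3.01, 2.23, 2.50, 2.86 and 2.03 in none arrays. Every high array was thus far above every none array, with replicate 5 the lowest (6.86 ± 0.43, adjusted p = 8.77e-16, 116-fold against values at the floor). Stefin A genes are near-identical copies, so the signal may belong to several of them. Sostdc1, a secreted antagonist of BMP and Wnt signals, was at 7.89, 9.28, 9.42 and 9.32 against 3.49, 3.31, 3.36, 2.95 and 3.93. Here replicate 2 was the lowest high array, and it still exceeded the highest none array (5.57 ± 0.31, adjusted p = 4.88e-17, 47.5-fold). Nrn1 (4.86 ± 0.51) encodes neuritin, a small membrane-anchored protein first known from neurons, and Nrgn (3.87 ± 0.24) encodes neurogranin, which binds calmodulin. Cacna1d, a pore subunit of L-type calcium channels, rose by 3.84 ± 0.30, and Ntrk3, the receptor of neurotrophin-3, by 3.82 ± 0.32. Sccpdh (4.35 ± 0.26) completes the genes of this kind among the 12 largest rises, the others being signal, receptor and chemokine genes described next. The adjusted p of these 5 genes lay between 1.17e-16 and 2.68e-09.

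**Figure D2:**
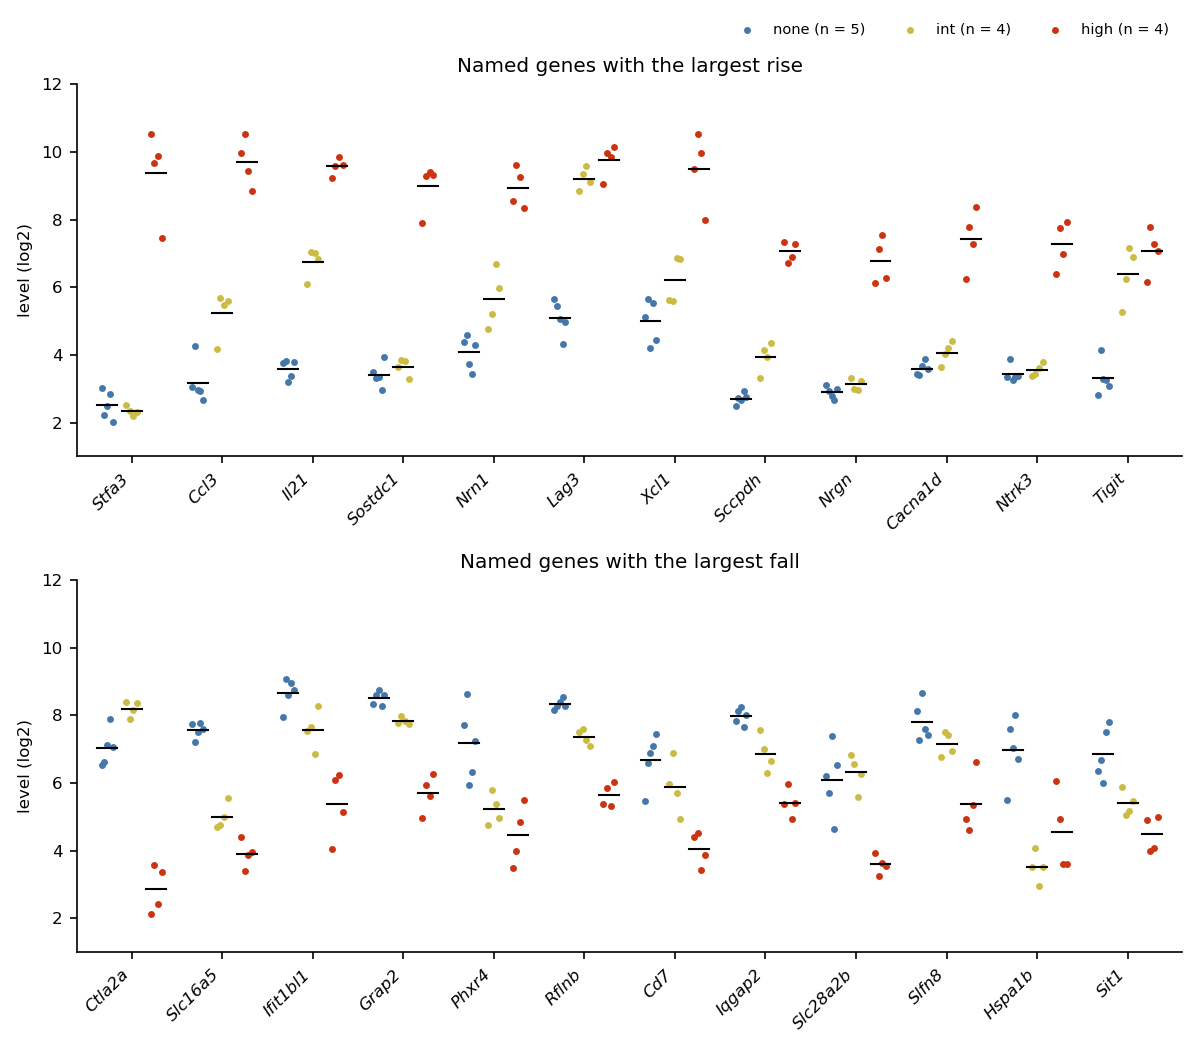
Level (log2) of the 12 named genes with the largest rise (upper panel) and the 12 with the largest fall (lower panel), each point 1 array of the none, int or high group and each bar the group mean. High and none arrays do not overlap for any of these genes but Hspa1b, which largely follows from picking them by that difference (6.5% of all genes do not overlap). Int arrays lie near the none arrays for Stfa3 and Sostdc1 and near the high arrays for Lag3.

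A few chemokine ligands rose steeply. Of 10 measured, 4 rose and 0 fell (40% called), with a median difference of 0.31 against 0.01 over all genes. Ccl3, which draws in monocytes and T cells, stood at 9.98, 10.52, 9.44 and 8.83 under high antigen and at 3.04, 4.26, 2.95, 2.94 and 2.68 without. No array of one group came near the other (6.52 ± 0.72, adjusted p = 6.67e-09, 91.7-fold). Ccl4, its neighbour in function, was at 6.95, 9.50, 8.39 and 7.17 against 3.75 to 5.10 (3.61 ± 0.50, adjusted p = 1.11e-06). Xcl1, whose receptor marks cross-presenting dendritic cells, was at 9.48, 10.52, 9.97 and 7.99 against 4.20 to 5.66 (4.50 ± 0.68, adjusted p = 6.46e-06). For Xcl1 replicate 5 was again the lowest of the high arrays. Cxcl10 (1.48 ± 0.46, adjusted p = 0.0467) overlapped between groups and was lost without 7 of the 9 arrays, to adjusted p = 0.204 at most (without high replicate 3). Ccl5, abundant in both groups at 10.19 ± 0.93 and 11.09 ± 0.25, did not pass the test (adjusted p = 0.46). Receptors moved less. Of 18 chemokine and homing receptors 2 rose and 1 fell (16.7% called). Ccr6, the receptor of CCL20, was at 0.69 ± 0.16 (adjusted p = 0.00523) and Cxcr3, the Th1 homing receptor, at -0.93 ± 0.20 (adjusted p = 0.00208). Without none replicate 2 or 4 the falls numbered 2. Cxcr4 (1.01 ± 0.29, adjusted p = 0.0292) overlapped and was lost without 5 of the 9 arrays, to adjusted p = 0.115 at most (without high replicate 5).

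Genes induced early by the T cell receptor were higher as a group. Of 28 measured, 12 rose, 0 fell and 16 were not called (42.9% called, beside 5.25% of all genes), with a median of 0.54. Nr4a1, a nuclear receptor induced within the first hours of receptor signalling, was at 7.08, 7.73, 8.42 and 7.88 under high antigen and 5.33, 6.38, 5.61, 5.27 and 5.21 in none cells. All high arrays were above all none arrays (2.22 ± 0.29, adjusted p = 5.64e-07). Egr2, a zinc finger factor linked to anergy, was at 6.17, 7.73, 7.78 and 8.02 against 6.12, 6.40, 5.33, 5.99 and 6.20. Its groups overlapped, because high replicate 2 sat at the none level while the other high arrays stood well above it (1.42 ± 0.31, adjusted p = 0.00192). Egr1 overlapped in the same way (1.56 ± 0.34, adjusted p = 0.00178, with high replicate 2 at 6.63 and none cells up to 7.01). Larger were the rises of Bhlhe40, a repressor that supports cytokine production (3.26 ± 0.38, adjusted p = 2.83e-08), Nfil3 (2.96 ± 0.29, adjusted p = 7.23e-10) and Nr4a2 (2.38 ± 0.35, adjusted p = 3.42e-06). Irf4, which scales with receptor signal strength, rose by 1.79 ± 0.30 (adjusted p = 5.79e-05) and its partner Batf by 1.44 ± 0.25 (adjusted p = 5.83e-05). The AP-1 subunits Jun and Fos were not called, Jun at 5.04 ± 1.27 against 6.43 ± 1.15 and Fos at 4.24 ± 0.44 against 5.25 ± 0.96 (adjusted p = 0.148 and 0.0938). Without none replicate 1 both fell (-1.85 and -1.41, adjusted p = 0.0345 and 0.0039). These were the 2 falls of the list without that array. The activation marker Cd69 differed by -0.08 (adjusted p = 0.933) and Cd5, whose level follows receptor signal in resting cells, by 0.28 (adjusted p = 0.277).

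Feedback inhibitors of these signals gave a mixed picture, with 5 of 17 higher, 2 lower (41.2% called) and a median of 0.19. Spry2, a Sprouty inhibitor of the MAPK pathway, was at 6.88, 6.86, 5.68 and 5.72 against 3.21, 3.12, 3.08, 2.95 and 3.56. The high arrays formed an upper and a lower pair, both well above none (3.10 ± 0.21, adjusted p = 1.16e-14). Rgs16, which shortens G-protein signals, rose by 2.84 ± 0.40 (adjusted p = 1.99e-06), whereas its relative Rgs2 fell by 2.23 (SE 0.39, adjusted p = 7.93e-05). Dusp6, the phosphatase of ERK, rose by 1.57 ± 0.27 (adjusted p = 6.46e-05). The calls of Spred1 (1.08 ± 0.31), Dusp4 (0.89 ± 0.27) and Socs3 (-0.99 ± 0.30) were borderline and overlapping. They were lost without 5, 7 and 7 of the 9 arrays, to adjusted p = 0.195, 0.292 and 0.245 at most (each without high replicate 3), and the list's count of rises fell to 3 without high replicate 3 or 4 and without none replicate 2 or 3. Its count of falls was 1 in several of these settings.

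Members of the receptor pathway itself moved in both directions. Of 19 genes of the receptor complex and proximal signalling, 4 rose and 5 fell (47.4% called), with a median of 0.06. Themis, needed for signalling from weak ligands, was at 7.09, 7.37, 7.31 and 6.99 under high antigen and 8.37, 9.13, 8.73, 8.68 and 8.82 without (-1.56 ± 0.16, adjusted p = 1.85e-09). High arrays lay close together and entirely below. Rasgrp1, which activates Ras downstream of the receptor, was at -1.21 ± 0.16 (adjusted p = 4.11e-07), and Lat, the membrane scaffold of the pathway, at -1.07 ± 0.11 (adjusted p = 1.41e-09). Grap2 (GADS), the adaptor that ties LAT to SLP-76, was among the 12 largest falls. It stood at 4.97, 5.94, 5.62 and 6.28 against 8.34, 8.60, 8.76, 8.27 and 8.61, with no overlap (-2.81 ± 0.21, adjusted p = 2.73e-13, 7.03-fold). Sit1, a transmembrane adaptor that dampens the receptor, fell as well (-2.38 ± 0.40, adjusted p = 4.92e-05). In the other direction went Zap70, the kinase bound to the receptor chains, at 8.26, 8.97, 8.99 and 8.61 against 7.36 to 7.71 (1.11 ± 0.16, adjusted p = 1.69e-06). Ubash3b, a phosphatase that acts on ZAP70, rose too (1.17 ± 0.23, adjusted p = 0.000609), while its relative Ubash3a fell (-0.97 ± 0.18, adjusted p = 0.00017). Cd3g rose slightly (0.34 ± 0.07, adjusted p = 0.00125), a call lost with only the compared groups in the fit (adjusted p = 0.0663). Without high replicate 2 the list counted 8 rises and 4 falls, and the overlapping call of Plcg1 (-0.88 ± 0.23) was lost (adjusted p = 0.143).

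Of 19 inhibitory receptors, 10 rose, 2 fell and 7 were not called (63.2% called), with a median of 0.93. Lag3, which binds MHC class II, was at 9.06, 9.97, 9.84 and 10.14 under high antigen and 5.65, 5.45, 5.06, 4.33 and 4.96 in none cells. The gap between the lowest high and the highest none array was larger than the spread of either group (4.66 ± 0.45, adjusted p = 2.98e-10, 25.3-fold). Pdcd1, which encodes PD-1, was at 7.42, 8.01, 8.49 and 8.22 against 4.56, 5.07, 5.11, 5.20 and 4.52 (3.14 ± 0.35, adjusted p = 8.05e-09, 8.83-fold). Tigit, a receptor of nectins, was at 6.16, 7.79, 7.27 and 7.08 against 2.82 to 4.14 (3.76 ± 0.42, adjusted p = 1.08e-08). High replicate 2 was the lowest high array for all 3 receptors and still above every none array. Nt5e (CD73), which makes adenosine, rose by 3.71 ± 0.31 (adjusted p = 7.49e-12), and Entpd1 (CD39), which acts before it, by 0.93 ± 0.18 (adjusted p = 0.000464). Cd200 (2.66 ± 0.29), Cd160 (1.55 ± 0.34, overlapping), Ctla4 (1.27 ± 0.24) and Btla (1.03 ± 0.23) completed the named rises, with adjusted p between 4.87e-09 and 0.00294. Lair1, a collagen receptor, went the other way, from 4.91 to 5.70 in none cells to 3.58 to 4.08 (-1.65 ± 0.32, adjusted p = 0.000421). Havcr2 (TIM-3), a marker of exhausted CD8 cells, was near the floor in both groups, at 2.95 ± 0.26 and 2.65 ± 0.08 (adjusted p = 0.252).

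Costimulatory receptors and TNF-family ligands followed, with 12 of 22 higher, 0 lower (54.5% called) and a median of 0.73. Tnfrsf4 (OX40) was at 9.07, 9.14, 9.03 and 8.10 against 6.22, 6.08, 5.57, 5.46 and 5.62 (3.04 ± 0.30, adjusted p = 5.81e-10). All high arrays stood clear of the none arrays. Tnfrsf9 (4-1BB) rose by 2.96 ± 0.44 (adjusted p = 4.41e-06) and its ligand gene Tnfsf9 by 2.27 ± 0.31 (adjusted p = 9.21e-07). Tnfsf8 (CD30 ligand) reached 9.79 to 10.58 from 8.00 to 8.55 (2.02 ± 0.22, adjusted p = 4.11e-09), and Tnfsf11 (RANKL) rose by 1.69 ± 0.30 (adjusted p = 0.000104). Tnfsf4, the ligand of OX40, did not pass the test (0.72 ± 0.54, adjusted p = 0.582). Cd28 lay at 8.70 ± 0.26 and 8.72 ± 0.19 (adjusted p = 0.98). Without none replicate 4, 1 member of the list fell.

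Transcription factors linked to exhaustion moved together, with 12 of 16 higher, 1 lower (81.2% called) and a median of 1.42. This list shares Bhlhe40, Irf4, Batf and the NR4A genes with the early genes above. Tox, a chromatin factor of exhausted T cells, was at 8.31, 9.30, 9.03 and 9.44 against 7.33, 7.75, 7.18, 7.50 and 7.62. Each high array exceeded the highest none array (1.54 ± 0.21, adjusted p = 1.36e-06). Ikzf2 (Helios) was at 6.51, 8.32, 8.68 and 8.95 against 5.33, 6.71, 5.10, 5.59 and 5.86 (2.40 ± 0.40, adjusted p = 4.85e-05). Only high replicate 2 fell within the none range there. Id2 rose by 1.39 ± 0.22 (adjusted p = 2.37e-05). Maf, which drives IL-10 and IL-21, was at 8.75, 10.55, 11.07 and 11.67 against 7.95 to 9.35, and its call (1.70 ± 0.49, adjusted p = 0.0276) was lost without 5 of the 9 arrays, to adjusted p = 0.137 without high replicate 5. Ikzf3 (Aiolos) fell by 1.24 (SE 0.21, adjusted p = 4.47e-05). Eomes, a T-box factor of terminally exhausted CD8 cells, stayed at 4.02 ± 0.26 and 3.75 ± 0.27 (adjusted p = 0.873).

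**Figure D3:**
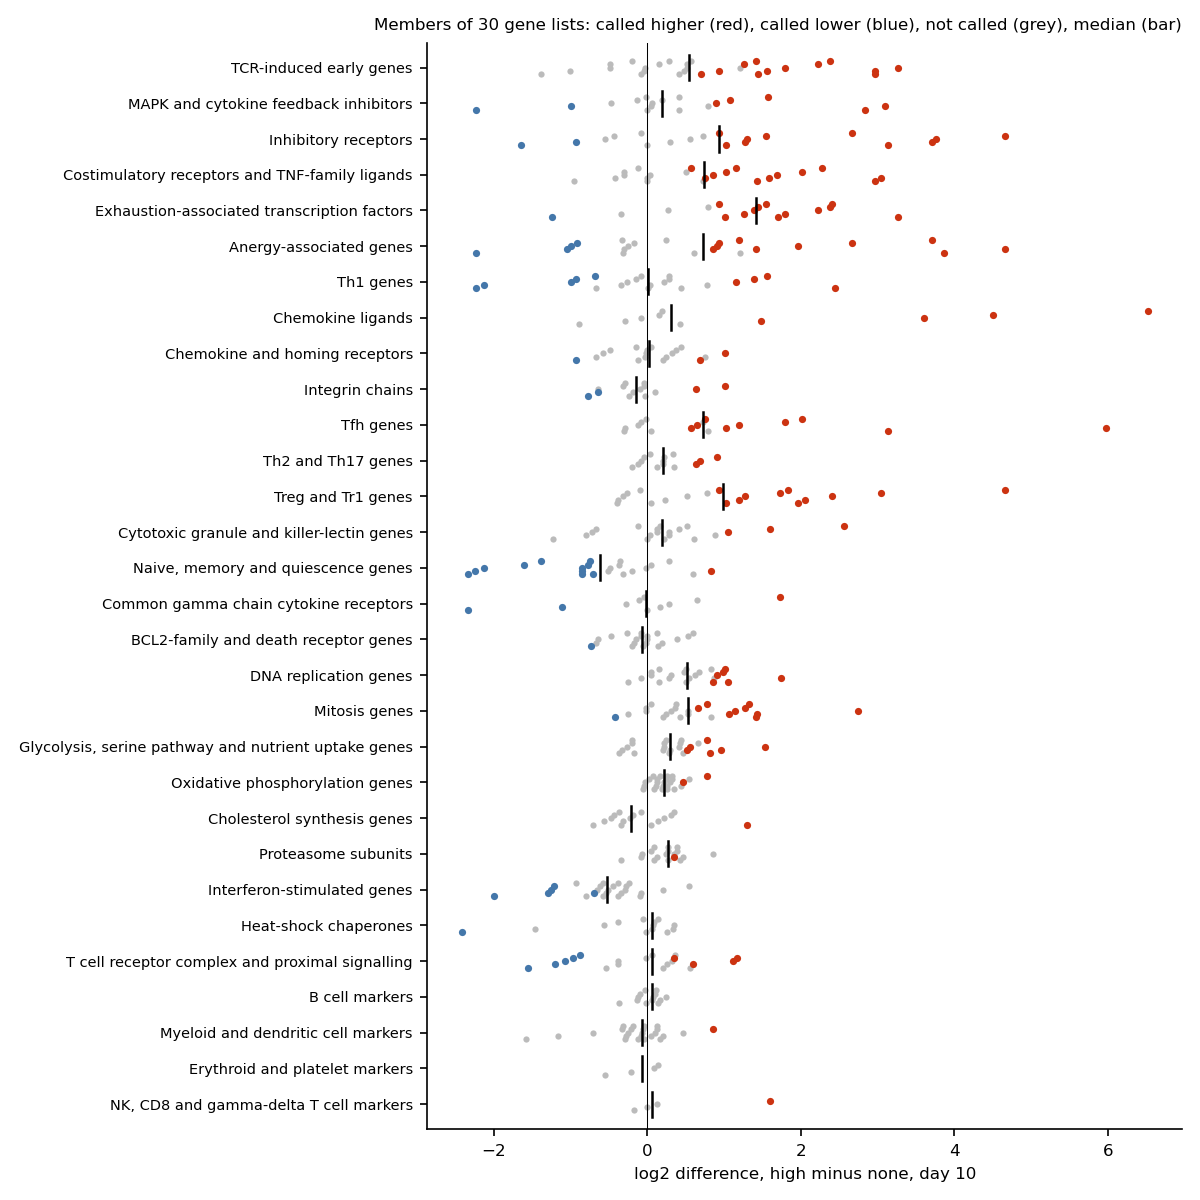
Log2 difference between high and none cells (x axis) of each measured member of 30 gene lists (rows), red where called higher, blue where called lower and grey where not called, with a bar at the list's median. Medians lie furthest to the right for the exhaustion-associated factors (1.42) and furthest to the left for the naive, memory and quiescence genes (-0.61).

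Genes associated with anergy split. Of 22 measured, 10 rose and 4 fell (63.6% called), with a median of 0.73. Besides Lag3, Nrgn, Nt5e and Cd200, the rises included Nrp1 (1.96 ± 0.26, adjusted p = 8.66e-07), Izumo1r, which encodes folate receptor 4 (1.19 ± 0.20, adjusted p = 4.77e-05, overlapping), and Rnf128, the ubiquitin ligase GRAIL (0.91 ± 0.13, adjusted p = 1.21e-06). Rnf128 went from 2.34 to 2.79 in none cells to 3.20 to 3.88, close to the floor. The lipid kinase Dgka, which blunts receptor signals in anergic cells, fell (-1.05 ± 0.15, adjusted p = 4.32e-06), as did Dtx1 (-1.00 ± 0.20, adjusted p = 0.000686). The ligase Cblb was at 9.55 ± 0.34 and 9.85 ± 0.15 (adjusted p = 0.235), and was called lower without high replicate 5 (-0.46, adjusted p = 0.0285).

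Helper cytokine programmes were unequal. Il21, the cytokine of follicular helper cells, was at 9.22, 9.59, 9.86 and 9.62 under high antigen and 3.75, 3.83, 3.19, 3.39 and 3.78 in none cells. High arrays agreed within less than 1 log2 unit and lay far above (5.98 ± 0.44, adjusted p = 1.33e-13, 63.3-fold). Bcl6, the follicular helper factor, was at 6.64, 8.11, 7.43 and 7.98 against 5.85, 6.16, 5.51, 5.09 and 6.14 (1.79 ± 0.29, adjusted p = 2.27e-05). In the follicular helper list 9 of 17 rose and 0 fell (52.9% called), with a median of 0.72. Its chemokine receptor Cxcr5 was not among them, at 8.17 ± 0.43 and 8.19 ± 0.21 (adjusted p = 0.99). Of 20 Treg and Tr1 genes 11 rose and 0 fell (55% called), with a median of 0.98. This list shares Lag3, its largest difference (4.66), with the inhibitory receptors and the anergy genes. Il10 reached 4.42, 6.05, 4.84 and 3.32 from 2.48 to 2.73 (2.05 ± 0.42, adjusted p = 0.000919). The high arrays spread widely and replicate 5 was the nearest to none. Il2ra (CD25) rose by 1.73 ± 0.32 (adjusted p = 0.000174) and Capg, an actin-capping protein, by 1.83 ± 0.23 (adjusted p = 1.32e-07). Foxp3 itself was at 3.41 ± 0.35 and 3.81 ± 0.34 (adjusted p = 0.527).

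The Th1 list showed no common direction, with 4 of 21 higher, 5 lower (42.9% called, 3 lower without both farthest arrays) and a median of 0.01. Ifng was at 7.42, 7.46, 7.27 and 5.77 against 4.31, 5.65, 4.16, 4.17 and 4.42. High replicate 5 only just exceeded none replicate 2, while the other arrays were far apart (2.44 ± 0.36, adjusted p = 4.39e-06). Il12rb2, the signalling chain of the IL-12 receptor, rose by 1.56 ± 0.25 (adjusted p = 1.93e-05). Ifngr1, through which cells sense interferon-gamma, fell from 7.29 to 7.88 to between 4.99 and 5.68 (-2.24 ± 0.33, adjusted p = 5.44e-06). Ly6c2 fell by 2.13 (SE 0.48, adjusted p = 0.00325), though it may share signal with the near-identical Ly6c1, whose own probe set gave -0.35. Selplg, the ligand of P-selectin, fell by 1.00 (SE 0.23, adjusted p = 0.00365), a call lost without both farthest arrays (adjusted p = 0.0896). Tbx21, the Th1 master factor T-bet, had the same mean in both groups, 6.98 ± 0.55 and 6.98 ± 0.19 (adjusted p = 0.996), and Il2 was at 4.10 ± 0.50 and 4.07 ± 0.77 (adjusted p = 0.989). Of 14 Th2 and Th17 genes 3 rose and 0 fell (21.4% called), each to levels near the floor. They were Il1r1 (0.91 ± 0.17, adjusted p = 0.000194), Ccr6 and Il23r (0.63 ± 0.17, adjusted p = 0.0141, lost without high replicate 2 or 4 to at most adjusted p = 0.0854).

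Of 20 cytotoxic granule and killer-lectin genes 3 rose (15%, beside 5.25% of all genes called) and 0 fell, with a median of 0.19. Klrc1, a chain of the NKG2A receptor, was at 6.46, 7.95, 6.95 and 6.05 against 3.83, 4.26, 4.30, 4.69 and 4.37 (2.56 ± 0.47, adjusted p = 0.000168). It belongs to a family of near-identical genes, and its signal may be shared with them. Klrb1c (NK1.1) rose by 1.60 ± 0.29 (adjusted p = 0.000141) and Srgn, the proteoglycan of secretory granules, by 1.05 ± 0.12 (adjusted p = 6.67e-09). Klrb1c also marks NK cells, and Ncr1, which defines them, was at 2.90 ± 0.21 and 2.77 ± 0.06 (adjusted p = 0.766). Gzmb, the main granzyme, was at 3.90 ± 0.71 and 4.03 ± 0.42 (adjusted p = 0.928). Without none replicate 3, 1 member of the list fell.

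Genes of naive, memory and resting cells formed the group with the most falls, 11 of 22, with 1 rise (54.5% called) and a median of -0.61. Il7r, the receptor chain for IL-7, was at 7.81, 7.78, 7.94 and 8.11 under high antigen and 9.92, 10.49, 10.66, 9.94 and 10.24 in none cells. The high arrays were nearly equal to each other and all below the none arrays (-2.34 ± 0.44, adjusted p = 0.000288, 5.06-fold). Actn1, which links actin filaments to adhesions, was at 5.71 to 6.13 against 7.57 to 8.59 (-2.25 ± 0.24, adjusted p = 4.19e-09). Satb1, a genome organiser of T cells, fell by 1.61 (SE 0.26, adjusted p = 1.95e-05), the kinase Txk by 1.39 (SE 0.31, adjusted p = 0.00253) and Foxo1, which drives Il7r and homing genes in resting cells, by 0.85 (SE 0.17, adjusted p = 0.000452). Klf2 and S1pr1, the exit factor and its target, were not called (-0.20 and -0.49, adjusted p = 0.735 and 0.257). The single rise, Id3 (0.83 ± 0.25, adjusted p = 0.0422), overlapped and was lost without 7 of the 9 arrays, to adjusted p = 0.151 at most (without none replicate 3). Of 10 receptor and signalling genes of the common gamma chain family 1 rose and 2 fell (30% called, and 2 rose without high replicate 2 or 5). Among them Il4ra fell (-1.12 ± 0.22, adjusted p = 0.000507). Of 20 BCL2-family and death receptor genes 1 was called (5%, near the 5.25% of all genes), Cflar, which encodes the caspase-8 inhibitor c-FLIP. It stood at 7.07 to 7.45 against 7.77 to 8.22 (-0.73 ± 0.15, adjusted p = 0.000891). The pro-apoptotic Bcl2l11 (BIM) was at 5.15 ± 0.15 and 5.21 ± 0.34 (adjusted p = 0.947). The list's count of rises was 2 without high replicate 2 and 1 without high replicate 5, and its count of falls 2 without high replicate 5 or none replicate 4.

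The lowest log2 difference among the named genes was that of Ctla2a, which resembles the propeptide of cathepsins and inhibits them. It lay at 2.12, 3.58, 2.43 and 3.36 in high arrays, at the floor, and at 6.53, 6.62, 7.13, 7.90 and 7.08 in none arrays (-4.18 ± 0.48, adjusted p = 2.17e-08, 18.1-fold with the high arrays at the floor). The near-identical Ctla2b may share its signal. Slc16a5, a member of the monocarboxylate transporter family, was at 4.41, 3.39, 3.89 and 3.95 against 7.21 to 7.78 (-3.66 ± 0.40, adjusted p = 7.12e-09), though a second probe set of the gene gave -1.05. Rflnb, a partner of filamins, fell by 2.70 (SE 0.23), Cd7 by 2.63 (SE 0.39), Iqgap2, a scaffold of the cytoskeleton, by 2.55 (SE 0.28), Phxr4 by 2.72 (SE 0.47), the nucleoside transporter Slc28a2b by 2.49 (SE 0.45) and Slfn8, of the Schlafen family linked to quiescence, by 2.44 (SE 0.33). Their adjusted p lay between 1.18e-11 and 0.000146. Hspa1b, an inducible HSP70 chaperone, was at 6.05, 4.94, 3.62 and 3.61 against 5.50, 7.60, 7.04, 8.01 and 6.72. Both groups were spread over more than 2 log2 units and overlapped, and the call (-2.42 ± 0.73, adjusted p = 0.0401) was lost without 7 of the 9 arrays, to adjusted p = 0.147 without high replicate 4. The near-identical Hspa1a did not pass (-1.46, adjusted p = 0.247), and of 13 heat-shock chaperones no other was called (2 fell without none replicate 1).

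Interferon-stimulated genes leaned downward, with 5 of 24 lower, 0 higher (20.8% called) and a median of -0.53. Oas2, a sensor of double-stranded RNA, was at 3.55, 4.38, 4.02 and 4.70 against 6.53, 6.40, 5.86, 5.71 and 6.29 (-2.0 ± 0.31, adjusted p = 1.27e-05). All high arrays lay below all none arrays. Usp18, which removes ISG15 from proteins, was at -1.29 ± 0.24 (adjusted p = 0.000287) and Ifit1, a binder of foreign RNA, at -1.22 ± 0.29 (adjusted p = 0.00537). Ifit1bl1, related to Ifit1 and outside the list, fell most, from 7.96, 9.08, 8.61, 8.95 and 8.74 to 4.05, 6.10, 6.23 and 5.16 (-3.28 ± 0.36, adjusted p = 6.66e-09), and the 2 genes may share signal. The calls of Ifit2 (-1.26 ± 0.39) and Ddx58 (-0.70 ± 0.18), both overlapping, were lost without high replicate 2 (adjusted p = 0.297 and 0.096), which left 3 falls. That of Ifit2 was lost without 6 of the 9 arrays in all, high replicates 2 and 4 and none replicates 1, 2, 3 and 5. Isg15 differed by 0.20 and Mx1 by -0.58, and neither was called. The upstream sequences of Ifit1 and Ifit1bl1 are shown. Other genes of this kind fell too, and the 2 shown are those whose windows held the motif marked below. They are the 250 bases before the start of transcription in RefSeq's GRCm38.p6, at chr19:34640639-34640888 on the plus strand and chr19:34601969-34602218 on the minus strand (the first of 2 windows listed for that gene), written 5′ to 3′ along the gene. Capitals mark GAAANNGAAA, the core of the interferon-stimulated response element, on either strand.
Ifit1: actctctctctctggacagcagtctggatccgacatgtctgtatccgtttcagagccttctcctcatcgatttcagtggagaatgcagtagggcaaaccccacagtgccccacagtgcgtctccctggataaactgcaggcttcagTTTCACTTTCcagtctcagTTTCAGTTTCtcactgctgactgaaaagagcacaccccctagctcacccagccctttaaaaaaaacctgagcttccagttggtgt
Ifit1bl1: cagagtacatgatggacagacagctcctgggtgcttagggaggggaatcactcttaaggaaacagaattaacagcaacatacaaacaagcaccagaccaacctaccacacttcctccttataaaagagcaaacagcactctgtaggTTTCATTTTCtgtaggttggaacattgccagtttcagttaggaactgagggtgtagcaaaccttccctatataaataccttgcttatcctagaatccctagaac
Ifit1 holds 2 matches and Ifit1bl1 holds 1, all on the strand opposite to the gene. Of the 5 fallen list members and Ifit1bl1, 4 had a window, and 2 of these held the motif in at least 1 window. Of all 32851 single windows of this length 2.98% hold it, a share of windows and not of genes. A match is only a string of letters and shows no binding.

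Genes of the cell cycle were higher than in none cells by modest amounts. Of 23 mitosis genes 9 rose and 1 fell (43.5% called), with a median of 0.53. The fall was that of Smc4 (-0.42 ± 0.10, adjusted p = 0.00454), lost at adjusted p = 0.158 with only the compared groups in the fit. Of 22 DNA replication genes 6 rose and 0 fell (27.3% called), with a median of 0.52. Top2a, the topoisomerase that untangles chromosomes, was at 6.72, 7.25, 6.98 and 6.92 against 4.47, 4.20, 4.32, 3.84 and 4.32. Its high arrays agreed closely and lay far above (2.74 ± 0.21, adjusted p = 4.97e-13, 6.67-fold). The others were less even. Ccnb2 (cyclin B2) was at 5.45, 6.04, 4.37 and 3.85 against 3.32 to 3.70 (1.42 ± 0.29, adjusted p = 0.00107), with high replicate 5 just above the none arrays. Kif11, a spindle motor, rose by 1.43 ± 0.24 (adjusted p = 5.05e-05), Ccna2 (cyclin A2) by 1.27 ± 0.27 (adjusted p = 0.0013) and Ube2c by 1.32 ± 0.29 (adjusted p = 0.00235, overlapping through high replicate 5). Mki67, the proliferation marker Ki-67, was at 5.24, 5.01, 4.70 and 4.07 against 3.34 to 3.98, and its call (1.14 ± 0.30, adjusted p = 0.0123) was lost without high replicate 2 or 3 (adjusted p = 0.0726 and 0.0595). Cdk1, the mitotic kinase, was at 5.07, 3.71, 5.11 and 3.32 against 2.90 to 3.54, and its call (1.06 ± 0.33, adjusted p = 0.0477) was lost without 7 of the 9 arrays, to adjusted p = 0.241 without high replicate 4. Mcm6, of the replicative helicase, rose by 1.05 ± 0.20 (adjusted p = 0.000227). Rrm2, of ribonucleotide reductase, was at 5.80, 4.62, 6.31 and 3.59 against 2.91 to 3.88 (1.74 ± 0.41, adjusted p = 0.00516), overlapped, was lost without high replicate 4 (adjusted p = 0.0673), and read 0.89 on another probe set. The count of replication genes depended on single arrays. It was 13 without high replicate 5, 3 without high replicate 2 or 3 or none replicate 1, 1 without high replicate 4, and 1 without both farthest arrays. Rises among mitosis genes ran from 6 to 12 over the arrays left out. The mean level of the mitosis list was 3.84 to 4.45 in high, 3.61 to 3.66 in none and 4.18 to 4.69 in naive arrays. For the replication list it was 4.95 to 5.6, 4.69 to 4.84 and 5.0 to 5.2.

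**Figure D4:**
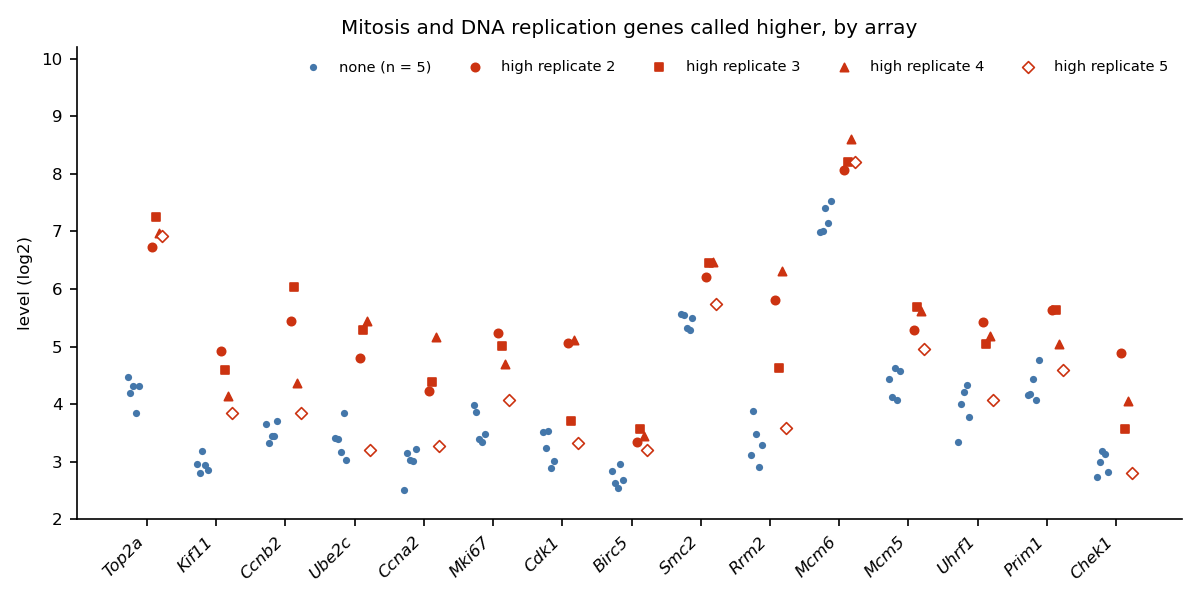
Level (log2) of the 15 mitosis and DNA replication genes called higher (x axis), with none arrays as blue dots and each high array under its own symbol. The groups do not overlap for 9 of the 15 genes, Top2a and Mcm6 among them, beside 783 of all 1165 called genes. High replicate 5 (open diamonds) lies within the none range for Ube2c, Cdk1, Rrm2, Uhrf1, Prim1 and Chek1. The calls of Uhrf1, Prim1 and Chek1 were each lost on leaving out any of several single arrays. Their limma adjusted p then reached 0.091 (without high replicate 2), 0.198 (without high replicate 3) and 0.286 (without high replicate 2). Each plotted gene that the text does not name also lost its call without high replicate 3 and without high replicate 4, at adjusted p up to 0.148.

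The upstream sequences of 3 mitosis genes are shown because late cell cycle genes are known to share short elements near their start. They come from RefSeq's GRCm38.p6, Top2a at chr11:99024190-99024439, Ccnb2 at chr9:70421555-70421804 and Cdk1 at chr10:69352913-69353162, each on the minus strand and written 5′ to 3′ along the gene. Capitals mark CCAAT, the box bound by NF-Y, and TTTGAA, the core of the cell cycle genes homology region, on either strand.
Top2a: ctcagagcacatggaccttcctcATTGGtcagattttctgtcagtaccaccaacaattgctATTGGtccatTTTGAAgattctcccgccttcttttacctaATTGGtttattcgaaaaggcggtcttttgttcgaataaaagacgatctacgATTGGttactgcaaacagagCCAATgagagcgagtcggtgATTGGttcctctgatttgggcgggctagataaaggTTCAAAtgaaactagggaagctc
Ccnb2: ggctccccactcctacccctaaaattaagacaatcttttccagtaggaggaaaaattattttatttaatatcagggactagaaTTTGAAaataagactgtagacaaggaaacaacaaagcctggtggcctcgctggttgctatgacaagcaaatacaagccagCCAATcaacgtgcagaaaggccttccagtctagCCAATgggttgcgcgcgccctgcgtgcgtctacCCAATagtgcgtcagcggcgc
Cdk1: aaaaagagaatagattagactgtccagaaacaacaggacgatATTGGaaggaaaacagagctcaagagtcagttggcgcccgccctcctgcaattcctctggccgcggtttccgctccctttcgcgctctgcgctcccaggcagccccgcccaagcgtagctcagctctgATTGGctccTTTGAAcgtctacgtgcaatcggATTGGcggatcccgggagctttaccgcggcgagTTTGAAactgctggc
Top2a holds 6 CCAAT matches, Ccnb2 3 and Cdk1 3, and TTTGAA occurs 2, 1 and 2 times. Of the 9 mitosis genes that rose 8 had a window, of which 7 held CCAAT and 7 held TTTGAA in at least 1 window. Of all 32851 single windows 33.8% and 16% hold them. The first counts are of genes and the shares are of windows, so they are not in like units. These counts describe letters in the window, and genes of a pathway are not independent of each other.

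The share of genes called was 26.1% for glycolysis, the serine pathway and nutrient uptake, beside 5.25% of all genes. It was 8% for oxidative phosphorylation, 6.25% for cholesterol synthesis and 5.56% for proteasome subunits, near the share over all genes. Of 23 genes of glycolysis, the serine pathway and nutrient uptake 6 rose and 0 fell, with a median of 0.29. Tpi1, triosephosphate isomerase, was at 7.04, 6.74, 7.68 and 6.34 against 5.10 to 5.93 (1.53 ± 0.30, adjusted p = 0.000499). Gapdh rose evenly, from 10.74 to 10.94 to between 11.19 and 11.62 (0.55 ± 0.09, adjusted p = 2.57e-05), and Psat1 of the serine pathway by 0.96 ± 0.24 (adjusted p = 0.0072). The glucose transporter Slc2a1 was not called (-0.37). Without high replicate 4 the count was 2, and Psat1 was lost (adjusted p = 0.0839). Of 25 genes of oxidative phosphorylation 2 rose, of which Cycs (cytochrome c) held on leaving out each array (0.78 ± 0.18, adjusted p = 0.0039, overlapping) but was lost with only the compared groups in the fit and with probe sets averaged (adjusted p = 0.063 and 0.0638). Cox5a (0.46 ± 0.14, adjusted p = 0.0459) overlapped and was lost without 6 of the 9 arrays, to adjusted p = 0.165 at most. Of 16 cholesterol synthesis genes 1 was called, Pmvk (1.30 ± 0.22, adjusted p = 6.26e-05), and of 18 proteasome subunits 1, Psme1 (0.34 ± 0.10, adjusted p = 0.0429), which overlapped and was lost without 6 of the 9 arrays, to adjusted p = 0.195 at most. The proteasome list had up to 4 rises (without none replicate 4). Of 14 integrin chains 2 rose and 2 fell (28.6% called). The calls of Itgal (0.63 ± 0.15, overlapping) and Itgb7 (-0.65 ± 0.16) were lost without high replicate 3 (adjusted p = 0.0569) and 2 (adjusted p = 0.0515), and that of Itgav (1.01 ± 0.27, overlapping) was lost without high replicate 3, 4 or 5 (adjusted p = 0.051, 0.0502 and 0.105). A second probe set of Itgav gave -0.04. Over the arrays left out, the integrin counts ran from 0 to 2 rises and from 0 to 3 falls.

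The high group was set against int, the iMCC group under persisting antigen, to see where it differed from that group. Recipient strain and doxycycline differ here too. Limma called 664 genes (2.99%), 311 higher (1.4%) and 353 lower (1.59%) under high antigen, and 317 of the calls held on leaving out each of the 8 arrays. The differences of high and of int from none share the none arrays, so both are given side by side and only high minus int is read as a test. Lag3 differed from none by 4.66 under high antigen and by 4.12 in int cells, and high minus int was 0.54 ± 0.47 (adjusted p = 0.718). Pdcd1 differed by 3.14 and 1.31, with a tested difference of 1.84 ± 0.37 (adjusted p = 0.00116). The chemokine Ccl3 differed by 6.52 and 2.06 (4.46 ± 0.75, adjusted p = 9.2e-05), and Il21 by 5.98 and 3.16 (2.83 ± 0.46, adjusted p = 5.41e-05). For Nr4a1 (2.22 and 2.79), Egr2 (1.42 and 1.82) and Bcl6 (1.79 and 2.46) the difference between high and int did not pass the test (adjusted p = 0.45, 0.684 and 0.318).

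Several genes were far from int and near the floor or the none level in one of the groups. Stfa3 was at 2.20 to 2.51 in int arrays and Sostdc1 at 3.28 to 3.84, so that high minus int (7.05 ± 0.46 and 5.33 ± 0.33, adjusted p = 4.48e-15 and 1.82e-15) was about as large as high minus none. S100a4, a calcium-binding protein of effector and memory cells, was at 9.81, 10.18, 10.68 and 9.86 under high antigen, 5.95, 7.38, 6.50 and 7.30 in int cells and 6.59 to 7.71 in none cells (high minus int 3.35 ± 0.41, adjusted p = 1.67e-07). The IL-18 receptor chain Il18r1 was at 7.41, 8.19, 7.61 and 7.80, against 4.05, 4.81, 3.94 and 3.41 in int cells (3.70 ± 0.38, adjusted p = 2.51e-09) and 6.30 to 7.66 in none cells. Among the genes lower than in int, Tnfsf4 was at 3.15, 3.38, 4.27 and 3.24 against 7.24, 6.92, 8.29 and 8.36 (-4.19 ± 0.57, adjusted p = 1.52e-06). Eomes followed the same arrangement, at 3.84, 3.95, 3.88 and 4.41 against 6.25, 5.63, 7.90 and 7.82 (-2.88 ± 0.53, adjusted p = 0.000378). Gzmk, a granzyme of memory-type cytotoxic cells, was at 3.15 to 4.15 against 5.62 to 7.69 (-2.86 ± 0.43, adjusted p = 1.24e-05), and Sox4, a factor of early T cell development, at 3.06 to 4.25 against 5.54 to 7.86 (-3.29 ± 0.48, adjusted p = 7.49e-06). For Tnfsf4, Eomes and Sox4 the high and none arrays overlapped while int stood above both.

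**Figure D5:**
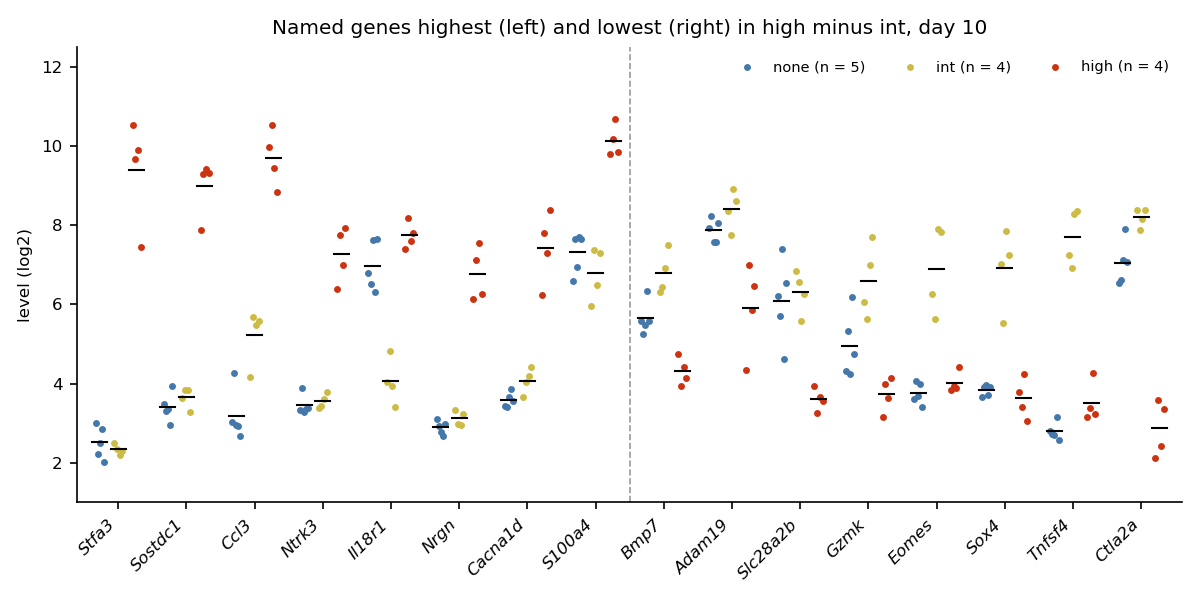
Level (log2) of the 16 named genes highest and lowest in high minus int on day 10 (x axis), each point 1 array of none, int or high and each bar the group mean. High arrays lie apart from int arrays for all 16 genes, which largely follows from picking them by that difference. Of all genes 7.46% do not overlap between high and int. High arrays overlap with none arrays for Il18r1, Eomes, Sox4 and Tnfsf4.

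Il7r was the lowest in int, at 7.58, 6.85, 5.97 and 4.59, then 7.78 to 8.11 under high antigen and 9.92 to 10.66 in none cells. The difference between high and int (1.66 ± 0.46, adjusted p = 0.0343) held for 2 of the 8 arrays left out in turn, with adjusted p up to 0.262. Ctla2a was at 7.89 to 8.39 in int cells, 6.53 to 7.90 in none cells and at the floor under high antigen (high minus int -5.33 ± 0.51, adjusted p = 3.7e-10). In naive cells, sorted on day 3, Lag3 was at 5.16 ± 0.40, Il21 at 3.28 ± 0.13, Sostdc1 at 3.28 ± 0.14 and Il7r at 7.52 ± 0.91 (n = 5).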

How the data were processed

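Sorted donor cells were hybridised to single-colour arrays (41345 probe sets, 43 arrays). The values, deposited by the authors as 1 normalised table, were taken as log2 because they run from 1.46 to 13.87 with array medians of 3.28 to 3.44. For background correction, summarisation and normalisation the method is not given in the sources used here. Of the probe sets 23521 carry 1 gene symbol, 1814 several and 16010 none. The brightest single-symbol probe set over all arrays stood for each of 22180 genes, of which 1082 had several. Linear models (limma 3.58.1, R 4.3.3) had a mean for each of 9 groups and moderated variances with a trend, and tables were made in Python 3.11.15 with pandas 2.3.3. On simulated data for high against none over 22180 genes, 26, 74, 92 and 100% of planted log2 changes of 0.5, 1, 1.5 and 2 were recovered. There were 6 false among 152 calls. The simulated noise was independent and normal, with 1 SD per gene over all groups. Looser spread in the high group and deviations shared across an array were not simulated, so these rates may not carry over to the real arrays. Members and gene lists were chosen with earlier results of these data known. The lists overlap, with 528 distinct genes among 588 members. Named were 12 fixed genes, the 12 highest and 12 lowest called differences, the 8 highest and 8 lowest against int, up to 5 called members of each list, and sort checks, and other genes were added after their values had been seen. Alternatives changed the arrays fitted, variance trend, scaling, weights, dim genes, probe sets, the replicate block and the arrays left out.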

Additional observations from a re-analysis of the deposited data

Results flagged for a closer look

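Arrays were screened for a value apart from the rest of their group with Dixon's criterion. Of 328 groups of values for the 164 genes named here 21 (6.4%) held such an array, and chance alone flags about 1 in 20. High replicate 2 accounted for 6 of them. It was the lowest high array for Cd4 (9.10, others 10.26 to 10.38), Egr1 (6.63, others 8.42 to 8.60), Egr2 (6.17, others 7.73 to 8.02), Ifit2 (3.05, others 4.56 to 4.85), Ptprc (10.62, others 11.03 to 11.11) and Sostdc1 (7.89, others 9.28 to 9.42). High replicate 5 was the lowest for Cox5a (8.78), Ifng (5.77, others 7.27 to 7.46) and Tnfrsf4 (8.10, others 9.03 to 9.14). High replicate 3 was the highest for Cxcr3 (8.97) and high replicate 4 the lowest for Itgax (2.56).

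Among the none arrays, replicate 2 was the highest for Ccl3 (4.26, others 2.68 to 3.04), Ifng (5.65, others 4.16 to 4.42) and Ntrk3 (3.89). Replicate 1 was the lowest for Cycs (7.99), Fos (3.63, others 5.32 to 5.99) and Zap70 (7.36). Replicate 3 was the highest for Rgs16 (5.15) and the lowest for Ubash3b (5.51). Replicate 4 was the highest for Il1r1 (3.55) and the lowest for S1pr1 (8.61).

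Probe sets outside the gene table also changed between high and none. Of 16010 without a gene symbol 259 were called (1.62%), 117 higher and 142 lower, and of 1814 with several symbols 48 were called (2.65%), 24 in each direction.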

How the results depend on the processing

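The count of 1165 genes called between high and none lay between 836 and 1349 with only the compared groups in the fit, no variance trend, quantile normalisation, median centring, array weights, dim genes left out or probe sets averaged, and between 803 and 1403 on leaving out 1 array. For high against int (664 genes) it was 345 with only the compared groups in the fit, 611 to 726 under the others, and 458 to 922 on leaving out 1 array. Without high replicate 2 and none replicate 4 together, a choice made once the data were known, the counts were 1040 and 523. Replicate numbers are shared between groups, and deviations from the group mean were correlated between arrays. For high and none, r ran from -0.12 to 0.0142 for same-numbered arrays and from -0.2234 to 0.2025 for the others. For high and int it ran from 0.0315 to 0.0955 and from -0.0649 to 0.0408. Same-numbered arrays were thus slightly more alike for high and int, but not for high and none. The fit with the replicate block called 483 genes between high and none, 446 of them among the 1165, and 271 between high and int. Of the 128 named genes called between high and none, 103 held on leaving out each array, 94 with the replicate block and 109 with only the compared groups in the fit, and no called difference changed its sign under any alternative run. Dim genes have differences that are limited by the floor of the scale.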
